A study of Mus musculus with 4 samples.

Results

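The serpins described here are 9 genes chosen by name, Serpine2, Serpinf1, Serpinh1, Serping1, Serpina3g, Serpina3h, Serpina3n, Serpinb2 and Serpinb9b, out of 54532 genes in the count table and 68 serpin family genes in the annotation. They were chosen with earlier results of these data known. RNA was sequenced from primary mouse embryonic fibroblasts (MEFs), mixed connective-tissue cells grown out of C57BL/6 embryos and taken at passage 4 while dividing. There was 1 library for each of 4 genotypes, the double null Trp53-/-; Zfp871-/-, Trp53-/-, Zfp871-/- and wild type (WT). Both Trp53-null genotypes came from a cross of double heterozygotes and Zfp871-/- cells from a cross of Zfp871 heterozygotes. The sources used here do not give the cross behind the WT library, any pooling of embryos or how either allele was built. No genotype had a replicate, so a pair of libraries has no replicate check and compares those libraries rather than conditions. Trp53 encodes the tumour suppressor p53, and Zfp871 encodes a zinc finger protein that the series title links to p53 and Mdm2.

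Serpins share a fold in which an exposed reactive centre loop acts as bait. A target protease cuts the loop, and the serpin then changes shape and traps the protease in an inactive complex. Some members have lost this activity and work as chaperones or signals. In fibroblasts, serpins are best known as brakes on plasminogen activators and thrombin at the cell surface, and as helpers of collagen folding.

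The libraries held 19303167 to 22324599 counts. As a check of the labels, there were 1382 and 1233 Trp53 counts in the double null and Trp53-/- against 2413 and 2383 in Zfp871-/- and WT, and 307 and 327 Zfp871 counts in the double null and Zfp871-/- against 784 and 660 in Trp53-/- and WT. Each of 12 fibroblast markers was detected in all libraries. Other cell types also left RNA in these cultures. Of 15 macrophage markers, 15 rose with Trp53 loss, with a summed level of 1004 and 1114 normalized CPM (counts scaled to library size) in the double null and Trp53-/-, 92.5 in Zfp871-/- and 79.2 in WT, and no marker was at 0 in any library. The 10 cartilage markers summed to 45.7 CPM in the double null, 38.1 in Trp53-/-, 84 in Zfp871-/- and 796 in WT. Only 5 of them passed the filter on low counts, and 1 of the 5, Col9a3, fell with Trp53 loss. Of the 10 markers, Col9a1, Hapln1 and Matn1 were at 0 in the double null, Cnmd, Col9a1 and Matn1 in Trp53-/-, Cnmd in Zfp871-/- and Matn1 in WT. Of the 12 fibroblast markers 3 fell with Trp53 loss, Col3a1, Fap and Lum, and 0 rose. The list did not move one way. At 2-fold or more, 4 were higher and 1 was lower in Trp53-/- against WT. In double null against Zfp871-/- 0 were higher and 2 were lower. Over all genes tested, 5.01% rose and 4.31% fell with Trp53 loss. The 6 endothelial markers summed to 18.7 CPM in the double null, 17.1 in Trp53-/-, 24.6 in Zfp871-/- and 12.2 in WT, and 0 of the 2 past the filter on low counts changed. Tie1 was at 0 in every library and Emcn in every library but Trp53-/-. In bulk RNA, fewer cells of a type and less RNA per cell cannot be told apart.

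3 of the 9 serpins changed with Trp53 loss. Serpine2 and Serpinb9b fell and Serpina3g rose, while Serpinh1 and Serpinf1, the most abundant of the set, stayed within 1.21-fold across the libraries. The test was edgeR's quasi-likelihood test in an additive design of Trp53 and Zfp871 status over 13306 genes, with Benjamini-Hochberg adjustment at 0.05. With Trp53 loss 5.01% of all genes tested rose and 4.31% fell, 9.33% in all. An unadjusted p under 0.05 for Trp53 loss was reached by 4 of the 9 and by 31% of all genes. With Zfp871 loss 0 of the 9 rose and 0 fell, and the background was 0% in each direction. An unadjusted p under 0.05 for Zfp871 loss was reached by Serpine2, Serpina3h and Serpinb2, 3 of the 9, and by 3.83% of all genes. As the 9 were chosen with earlier results of these data known, all these shares are background and not support. For Zfp871 loss DESeq2 and limma-voom also called 0 of the 9. In the additive design the libraries of each Trp53 status stand in for replicates, whatever their Zfp871 status. What both Trp53-null libraries share in cross or culture cannot be told apart from Trp53 loss.

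**Figure D1:**
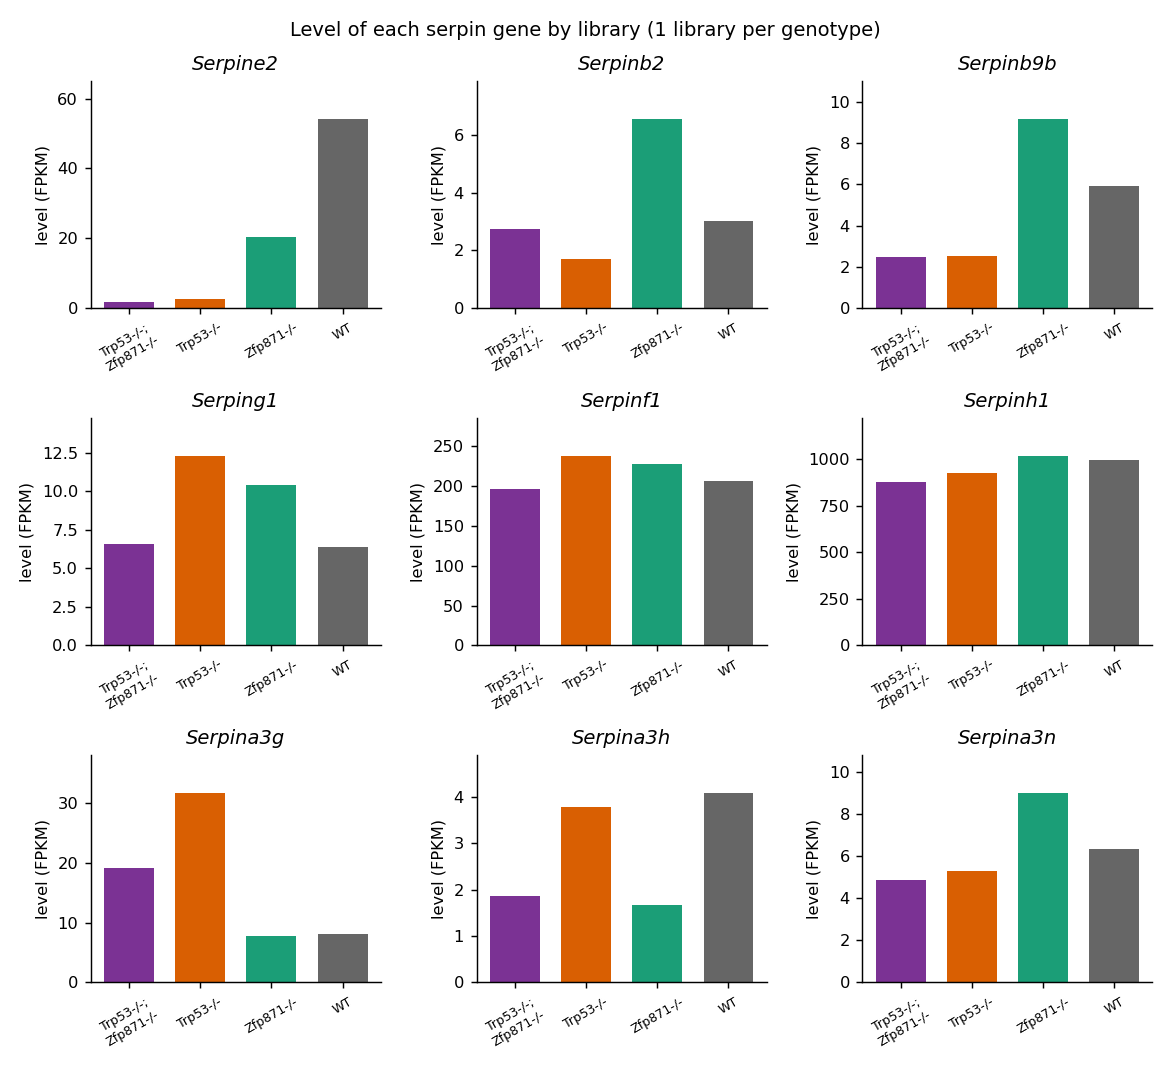
Level of each serpin gene (FPKM, fragments per kilobase scaled to library size, as deposited) in the 4 libraries, 1 bar per library and 1 library per genotype, each panel with its own linear scale from 0. Serpine2 stands at 1.74 and 2.54 FPKM in both Trp53-null libraries, against 20.4 in Zfp871-/- and 54.2 in WT, whereas Serpina3g is highest in Trp53-/- at 31.7 FPKM.

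Serpine2 encodes protease nexin-1, an inhibitor of thrombin, urokinase and plasmin that sits on the surface of fibroblasts. It had the widest range of the 9 genes, and both losses went with a lower level. Serpine2 (ENSMUSG00000026249, chromosome 1, 79794197 to 79861180, minus strand, GRCm38/mm10) had 335 counts in the double null, 462 in Trp53-/-, 3187 in Zfp871-/- and 8531 in WT. Both Trp53-null libraries thus lay below both others, and the Zfp871-/- library lay between them and WT. Normalized to library size, the WT level was 31.4-fold that of the double null. Serpine2 fell by 3.99 on the log2 scale with Trp53 loss in edgeR's quasi-likelihood test (SE 0.261, adjusted p 0.0115). The log2 ratio of double null to Zfp871-/- was -3.54 (95% counting interval -3.72 to -3.39), and that of Trp53-/- to WT was -4.41 (-4.56 to -4.28). For Zfp871 loss the log2 ratio was -0.55 (-0.76 to -0.35) in double null against Trp53-/- and -1.42 (-1.48 to -1.36) in Zfp871-/- against WT. That change of -1.01 with Zfp871 loss did not pass the edgeR test (SE 0.238, adjusted p 0.874). WT was highest and Zfp871-/- next for Serpine2 and for the summed cartilage markers. The double null was lowest for Serpine2 and Trp53-/- for those markers. In WT the sum came mostly from Col2a1, with 11633 counts there and 558 in Zfp871-/-. In double null against Zfp871-/- the log2 ratio of Col2a1 was -3.72. The median of the 5 cartilage markers past the filter was -0.30 in that pair. The part of cartilage cells in the Serpine2 difference was not tested.

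The bases before the Serpine2 start are shown because this gene moved most, beside those of Serpinb9b and Serpina3g, the others that passed the test. They are the 250 bases before the RefSeq start (GRCm38.p6), written 5′ to 3′ on the gene's strand, with motif matches in capitals.
Serpine2, chr1:79858666-79858915, minus strand: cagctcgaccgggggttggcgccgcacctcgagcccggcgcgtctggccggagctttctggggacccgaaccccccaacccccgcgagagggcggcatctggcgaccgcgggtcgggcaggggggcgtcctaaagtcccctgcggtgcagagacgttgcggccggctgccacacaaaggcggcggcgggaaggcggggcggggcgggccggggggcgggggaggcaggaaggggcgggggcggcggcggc
Serpinb9b, chr13:33027164-33027413, plus strand: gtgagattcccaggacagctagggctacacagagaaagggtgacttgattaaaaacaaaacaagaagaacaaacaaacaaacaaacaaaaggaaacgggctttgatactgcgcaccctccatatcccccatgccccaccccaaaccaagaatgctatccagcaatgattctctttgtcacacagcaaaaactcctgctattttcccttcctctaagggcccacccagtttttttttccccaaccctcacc
Serpina3g, chr12:104235897-104236146, plus strand: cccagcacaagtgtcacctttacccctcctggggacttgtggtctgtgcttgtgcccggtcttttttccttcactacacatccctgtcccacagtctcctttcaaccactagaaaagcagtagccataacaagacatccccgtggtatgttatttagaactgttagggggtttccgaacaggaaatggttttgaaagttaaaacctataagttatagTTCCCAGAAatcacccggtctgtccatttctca

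The Serpine2 window is 78.8% G or C, against 46% in each of the other windows shown. 4 motifs were searched on both strands: the p53 decamer (the unit that p53 response elements repeat), TTCNNNGAA (the core bound by STAT factors), GAAA followed by GAAA after any 2 bases (the core of interferon response elements) and TATAAA. Serpine2 and Serpinb9b held no match, and Serpina3g held 1 match of TTCNNNGAA, which overlaps no other motif. The Serpine2 window lies inside the annotated gene, which reaches to 79861180, so bases before that outer end were not searched. Among 32851 promoters of the same length, 7.13% held the p53 decamer, 7.02% TTCNNNGAA, 2.98% the spaced GAAA pair and 12.4% TATAAA. 7 of the 9 genes had a promoter in the table, and Serping1 and Serpina3h did not. Among those not shown, Serpina3n held 1 match of the p53 decamer, and Serpinb2 held TATAAA and TTCNNNGAA. Serpinf1 and Serpinh1 held no match.

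Serpinb2 and Serpinb9b belong to the clade of serpins that act mostly inside cells. Serpinb2 encodes plasminogen activator inhibitor 2, which blocks urokinase, and Serpinb9b is a mouse relative of Serpinb9, the inhibitor of granzyme B. Each was highest in Zfp871-/-. Scaled to library size, each was also lower in both Trp53-null libraries than in both others, as were 31.7% of all genes. Serpinb9b (ENSMUSG00000021403, chromosome 13, 33027416 to 33041884) had 195 counts in the double null, 188 in Trp53-/-, 579 in Zfp871-/- and 376 in WT. It fell by 1.54 on the log2 scale with Trp53 loss in edgeR's quasi-likelihood test (SE 0.228, adjusted p 0.0351). The log2 ratio was -1.86 (-2.11 to -1.64) in double null against Zfp871-/- and -1.20 (-1.47 to -0.95) in Trp53-/- against WT. With Zfp871 loss the ratio was -0.04 (-0.33 to 0.26) without Trp53 and 0.62 (0.44 to 0.82) with it. An annotated antisense gene, Gm36099, overlaps Serpinb9b and had at most 9 counts in a library.

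Serpinb2 (ENSMUSG00000062345, chromosome 1, 107511423 to 107535478) had 151 counts in the double null, 88 in Trp53-/-, 290 in Zfp871-/- and 134 in WT. Both Zfp871-null libraries were higher than their partner with the same Trp53 status, and both Trp53-null libraries were lower than their partner with the same Zfp871 status. The log2 ratio of Zfp871 loss was 0.68 (0.30 to 1.09) in double null against Trp53-/- and 1.11 (0.82 to 1.42) in Zfp871-/- against WT. For Trp53 loss it was -1.23 (-1.54 to -0.95) in double null against Zfp871-/- and -0.80 (-1.22 to -0.42) in Trp53-/- against WT. The double null and WT differed within counting error, with a log2 ratio of -0.13 (-0.47 to 0.22). Neither change passed the edgeR quasi-likelihood test, with a log2 change of -1.04 (SE 0.24, adjusted p 0.0725) for Trp53 loss and 0.91 (SE 0.24, adjusted p 0.874) for Zfp871 loss. Without a filter on low counts, the change with Trp53 loss passed it, with an edgeR adjusted p of 0.0327, where the alternatives ranged up to 0.13. Serpinb2 overlaps Serpinb10 on the same strand and shares 10.4% of its 50-base words with it, and Serpinb10 had 5 counts in WT and 0 in the other libraries.

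**Figure D2:**
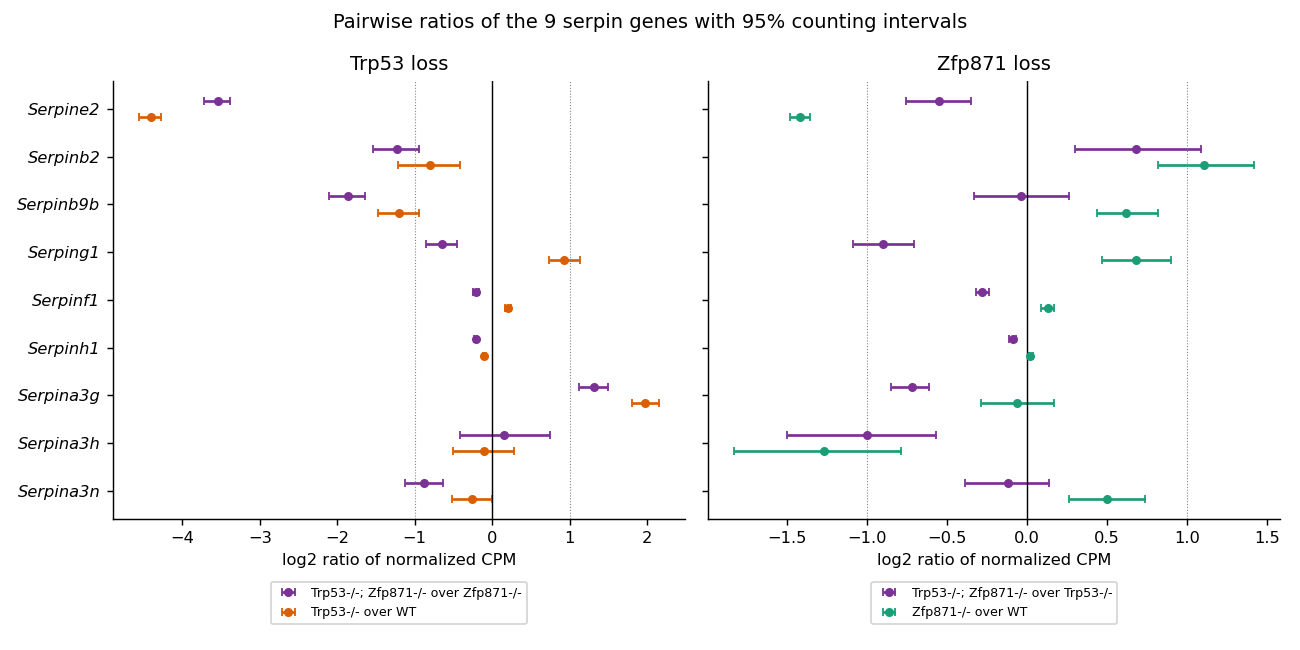
Log2 ratio of TMM-normalized CPM for the 9 serpin genes in the pairs of Trp53 loss (left) and of Zfp871 loss (right), with 95% counting intervals as bars and dotted lines at 2-fold. Serpine2 is far below 0 in both Trp53 pairs at -3.54 and -4.41, and Serping1 lies on opposite sides of 0 in both panels.

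Serping1 encodes C1 inhibitor, which blocks the complement proteases C1r and C1s and plasma kallikrein. It was higher in each single null than in WT, and the double null lay at the level of WT. Serping1 (ENSMUSG00000023224, chromosome 2, 84765387 to 84775444) had 357 counts in the double null, 627 in Trp53-/-, 454 in Zfp871-/- and 283 in WT. The log2 ratio to WT was 0.03 (-0.19 to 0.27) for the double null, 0.93 (0.73 to 1.14) for Trp53-/- and 0.68 (0.47 to 0.90) for Zfp871-/-. Against the single nulls, the double null had log2 ratios of -0.90 (-1.09 to -0.71) to Trp53-/- and -0.65 (-0.85 to -0.45) to Zfp871-/-. The effect of either loss was therefore 1.58 lower on the log2 scale when the other gene was lost too, with a counting interval of -1.86 to -1.29 for this difference of -1.58. This difference has no replicate and was not tested. The additive log2 change was 0.14 for Trp53 loss (SE 0.417, edgeR adjusted p 0.848) and -0.12 for Zfp871 loss (SE 0.417, edgeR adjusted p 0.969), neither past the test. The summed mesothelial markers were also higher in each single null than in WT, but were highest in Zfp871-/-, where Serping1 was highest in Trp53-/-. The 9 markers summed to 19.9 CPM in the double null, 27.2 in Trp53-/-, 44.5 in Zfp871-/- and 14.1 in WT, none was at 0 in any library, and 0 of the 8 past the filter changed in edgeR's test. Their median log2 ratio for Trp53 loss was -1.58 in double null against Zfp871-/- and 2.13 in Trp53-/- against WT, and for Zfp871 loss -1.18 in double null against Trp53-/- and 2.03 in Zfp871-/- against WT. Msln went the other way in Trp53-/- against WT, at -0.99. Some markers were near the floor in WT, with 1 count for Krt8, 3 for Lrrn4 and 5 for Wt1. Krt19 had 113 there. The pattern was not confined to mesothelial genes. The fibroblast marker Dcn had ratios of -0.58 and 1.66 for Trp53 loss and -0.97 and 1.27 for Zfp871 loss, in the same order of pairs. The medians of the 12 fibroblast markers were -0.45 and -0.11, and -0.25 and 0.32. The part of mesothelial cells or fibroblasts in the Serping1 level was not tested.

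C1 inhibitor acts on the first proteases of complement. Of 15 genes of the classical and lectin pathways, 10 passed the filter on low counts. In edgeR's test 4 rose and 1 fell with Trp53 loss, against 5.01% and 4.31% of all genes, and 0 changed with Zfp871 loss. The genes of the proteases themselves were not called for Trp53 loss. The log2 change was -0.08 for C1ra (edgeR adjusted p 0.762) and -0.19 for C1s1 (edgeR adjusted p 0.55). For Masp1, also on the list, it was -2.17 (SE 0.581, edgeR adjusted p 0.0942). C1qa, C1qb and C1qc, the subunits that recognise targets, rose by 4.04, 3.97 and 4.50, and these genes are also macrophage markers. C3, the central component, rose by 1.37, and C4b, cleaved by C1s, fell by 1.99. The median log2 ratio of the list was 0.09 in double null against Zfp871-/- and 0.77 in Trp53-/- against WT, where the median over all genes was 0.00 in each pair.

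Serpinf1 and Serpinh1 do not inhibit proteases. Serpinf1 encodes pigment epithelium-derived factor, a secreted protein known for blocking vessel growth, and Serpinh1 encodes HSP47, the chaperone of procollagen in the endoplasmic reticulum. Both were abundant in all libraries. Serpinf1 stood at 197 FPKM in the double null, 238 in Trp53-/-, 228 in Zfp871-/- and 207 in WT. Serpinh1 stood at 876 FPKM in the double null, 928 in Trp53-/-, 1018 in Zfp871-/- and 994 in WT. On this length-scaled measure Serpinh1 ranked first and Serpinf1 second of the 9 genes in every library.

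Their small differences exceeded counting error but not the spread that the additive fit allows. Serpinf1 (ENSMUSG00000000753, chromosome 11, 75409769 to 75422701) had 10811 counts in the double null, 12343 in Trp53-/-, 10140 in Zfp871-/- and 9269 in WT. It was higher in each single null than in WT, with log2 ratios of 0.20 (0.16 to 0.24) for Trp53-/- and 0.13 (0.09 to 0.17) for Zfp871-/-. The double null was lower than Trp53-/- (-0.28, -0.32 to -0.24) and lower than Zfp871-/- (-0.21, -0.25 to -0.17). In edgeR's test the changes were 0.00 for Trp53 loss (adjusted p 0.99) and -0.07 for Zfp871 loss (adjusted p 0.938). Serpinf1 lies 5.82 Mb from Trp53 on the same chromosome. Serpinh1 (ENSMUSG00000070436, chromosome 7, 99345376 to 99353239) had 49760 counts in the double null, 49760 in Trp53-/-, 46814 in Zfp871-/- and 46118 in WT. Its log2 ratios for Trp53 loss were -0.21 (-0.23 to -0.20) in double null against Zfp871-/- and -0.10 (-0.12 to -0.08) in Trp53-/- against WT. With total counts in place of TMM these were -0.07 and -0.01, a shift of 0.14 and 0.09 that applies to all genes in these pairs.

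Other genes of collagen synthesis changed where Serpinh1 did not pass the test. Of 22 genes of collagen folding, modification and export, 22 passed the filter, and 5 fell and 0 rose with Trp53 loss in edgeR's test, against 4.31% of all genes that fell. Plod2, a lysyl hydroxylase that sets collagen cross-links, fell by 1.10 (SE 0.102, edgeR adjusted p 0.0196). Fkbp10, a folding catalyst, fell by 0.61, P3h3, which takes part in collagen hydroxylation, fell by 0.76 and its partner P3h4 fell by 0.78. Col3a1, a fibrillar collagen chain, fell by 0.85. The median log2 ratio of the list was -0.45 in double null against Zfp871-/- and -0.43 in Trp53-/- against WT, and that of the 12 fibroblast markers, which share collagen genes with it, was -0.45 and -0.11.

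The Serpina3 genes form a cluster of 14 genes over 302 kb of chromosome 12, where humans have a single SERPINA3. Their bodies are alike and they differ mainly in the reactive centre loop. The coding stretch in which the expressed genes differ most from Serpina3g, found by a search of all gap-free windows of 60 bases, is shown because reads from there are the easiest to tell apart. In the coding genes it encodes the hinge and the start of the reactive centre loop. The sequences come from GENCODE M21 transcripts (GRCm38), plus strand, with bases that differ from Serpina3g in capitals.
Serpina3g, chr12:104241065-104241124: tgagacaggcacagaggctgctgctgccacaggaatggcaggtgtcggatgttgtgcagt
Serpina3f, chr12:104220238-104220297: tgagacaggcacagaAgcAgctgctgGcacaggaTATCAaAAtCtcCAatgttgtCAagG
Serpina3h, chr12:104253504-104253563: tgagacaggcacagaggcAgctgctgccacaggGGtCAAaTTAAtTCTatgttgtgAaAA
Serpina3i, chr12:104268473-104268532: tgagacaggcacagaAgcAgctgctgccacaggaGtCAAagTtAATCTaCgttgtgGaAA
Serpina3n, chr12:104413441-104413500: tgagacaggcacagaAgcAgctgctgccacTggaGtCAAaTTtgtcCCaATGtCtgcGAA

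In this window 16 to 18 of the 60 bases differ from Serpina3g. In the window that differs least, shown next because reads from there are the hardest to assign, Serpina3n is identical to Serpina3g and Serpina3h differs at 2 bases.
Serpina3g, chr12:104240321-104240380: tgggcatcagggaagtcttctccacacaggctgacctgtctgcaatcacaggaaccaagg
Serpina3n, chr12:104412408-104412467: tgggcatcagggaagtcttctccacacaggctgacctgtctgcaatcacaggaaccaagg
Serpina3h, chr12:104252759-104252818: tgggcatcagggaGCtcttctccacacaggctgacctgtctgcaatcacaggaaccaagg

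Over 648 aligned coding bases Serpina3g had 89.8% identity with Serpina3h and 84.3% with Serpina3n. Of the 50-base words in its transcripts, 15.5% of Serpina3g, 21.9% of Serpina3h and 6.9% of Serpina3n also occur in another gene. At 100 bases these shares were 3.49%, 3.6% and 0.204%. The sources used here give neither the read length nor the handling of reads with several matches, so part of the counts of each Serpina3 gene may belong to another. Serpine2, Serpinf1, Serpinh1 and Serping1 had no 100-base word in common with another gene.

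Serpina3g encodes an intracellular inhibitor of lysosomal cathepsins that interferons and macrophage activation are known to induce. It was higher in both Trp53-null libraries than in both others. Serpina3g (ENSMUSG00000041481, chromosome 12, 104236245 to 104241939) had 942 counts in the double null, 1465 in Trp53-/-, 308 in Zfp871-/- and 322 in WT. It rose by 1.64 on the log2 scale with Trp53 loss in edgeR's quasi-likelihood test (SE 0.207, adjusted p 0.0279). The log2 ratio was 1.31 (1.12 to 1.50) in double null against Zfp871-/- and 1.97 (1.80 to 2.15) in Trp53-/- against WT. With Zfp871 loss the double null was lower than Trp53-/- by a log2 ratio of -0.72 (-0.85 to -0.61), while Zfp871-/- and WT differed within counting error at -0.06 (-0.29 to 0.17).

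Interferon-stimulated and macrophage genes moved in the same libraries as Serpina3g. Of 12 interferon-stimulated genes 12 rose with Trp53 loss, with a summed level of 525 and 737 normalized CPM in the double null and Trp53-/-, 132 in Zfp871-/- and 121 in WT, and none was at 0 in any library. For this list the median log2 ratio of Zfp871 loss was -0.62 without Trp53 and 0.21 with it. Of 12 lysosomal and immune proteases that such serpins can meet, 8 passed the filter and 2 rose, Ctss (cathepsin S) by 4.48 and Casp1 (caspase 1) by 4.42, both typical of macrophages. The part of macrophages or of an interferon response in the level of Serpina3g was not tested.

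**Figure D3:**
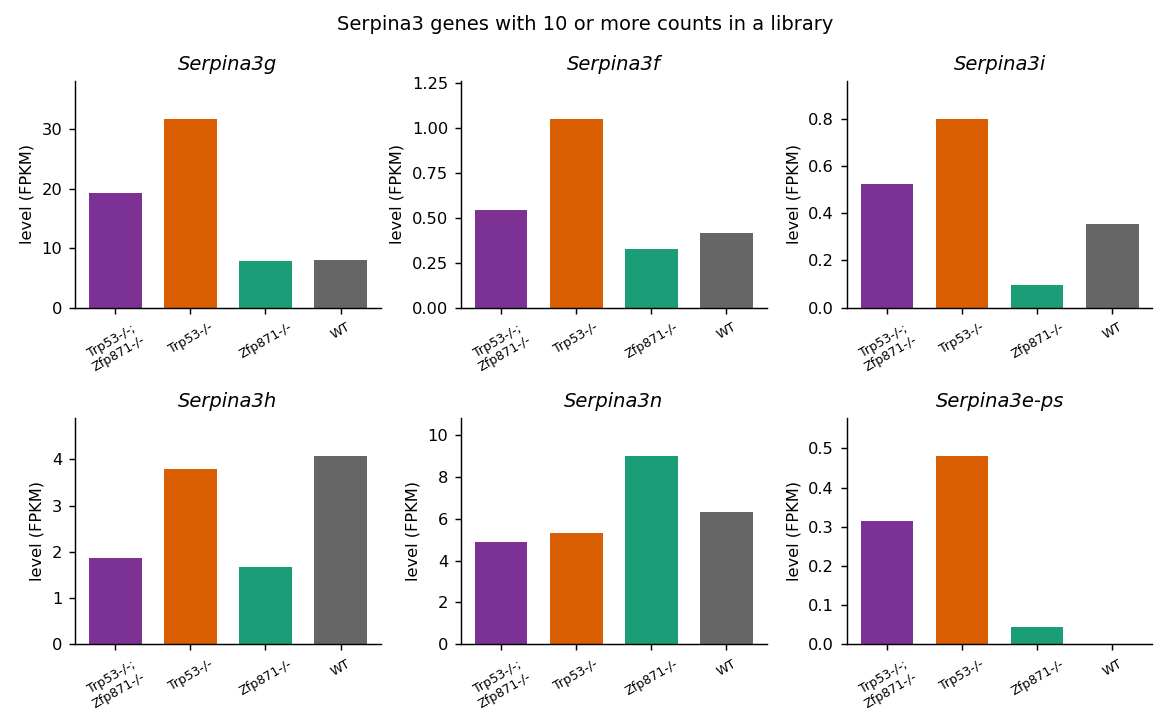
Level (FPKM) of the Serpina3 genes with at least 10 counts in a library, 1 bar per library, each panel with its own linear scale from 0. Serpina3g is the highest of them in the double null, Trp53-/- and WT at 19.2, 31.7 and 8.06 FPKM, while in Zfp871-/- Serpina3n at 9.01 FPKM is above Serpina3g at 7.77, and Serpina3h stands at 1.86 and 1.67 FPKM in both Zfp871-null libraries, against 3.78 in Trp53-/- and 4.08 in WT.

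Serpina3h, annotated as a transcribed pseudogene, was lower in both Zfp871-null libraries than in both others. It (ENSMUSG00000041449, chromosome 12, 104247905 to 104253669) had 62 counts in the double null, 119 in Trp53-/-, 45 in Zfp871-/- and 111 in WT. The same holds for 10.4% of all genes. The double null had 0.499 times the Trp53-/- level (log2 interval -1.50 to -0.57), and Zfp871-/- had 0.416 times the WT level (log2 interval -1.83 to -0.79), at least 2-fold lower in both pairs, as for 0.158% of all genes. Serpina3h was put on the list with these values known, so the share is background and not support. The change of -1.16 with Zfp871 loss did not pass the edgeR test (SE 0.292, adjusted p 0.874). Trp53 loss gave log2 ratios of 0.15 (-0.42 to 0.75) and -0.11 (-0.50 to 0.28), within counting error.

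Serpina3n, a secreted acute phase protein that inhibits granzyme B in mice, was highest in Zfp871-/-. It (ENSMUSG00000021091, chromosome 12, 104406729 to 104414329) had 234 counts in the double null, 240 in Trp53-/-, 350 in Zfp871-/- and 248 in WT. The log2 ratio of double null to Zfp871-/- was -0.88 (-1.13 to -0.64), and that of Trp53-/- to WT was -0.26 (-0.52 to 0.00). Zfp871-/- was higher than WT by 0.50 (0.26 to 0.74), while the double null and Trp53-/- differed within counting error at -0.12 (-0.39 to 0.14). Its changes of -0.57 with Trp53 loss (edgeR adjusted p 0.185) and 0.19 with Zfp871 loss (edgeR adjusted p 0.894) did not pass the test. Among 14 genes of the acute phase response, its cytokines and their signalling, 12 passed the filter. In edgeR's test 2 rose and 1 fell with Trp53 loss, against 5.01% and 4.31% of all genes. Saa3 (serum amyloid A3) and C3 rose with Trp53 loss, by 2.73 and 1.37, and Lif, a cytokine that signals through STAT3, fell by 1.89.

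Other Serpina3 genes were scarce. Serpina3f had 29 counts in the double null, 53 in Trp53-/-, 14 in Zfp871-/- and 18 in WT, and Serpina3i had 27 in the double null, 39 in Trp53-/-, 4 in Zfp871-/- and 15 in WT. Serpina3i was at least 2-fold higher in both Trp53 pairs, with log2 ratios of 2.03 in double null against Zfp871-/- and 1.08 in Trp53-/- against WT, and was not called (edgeR adjusted p 0.123). Both genes were higher in both Trp53-null libraries than in both others, as was Serpina3g, with which they share sequence.

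**Figure D4:**
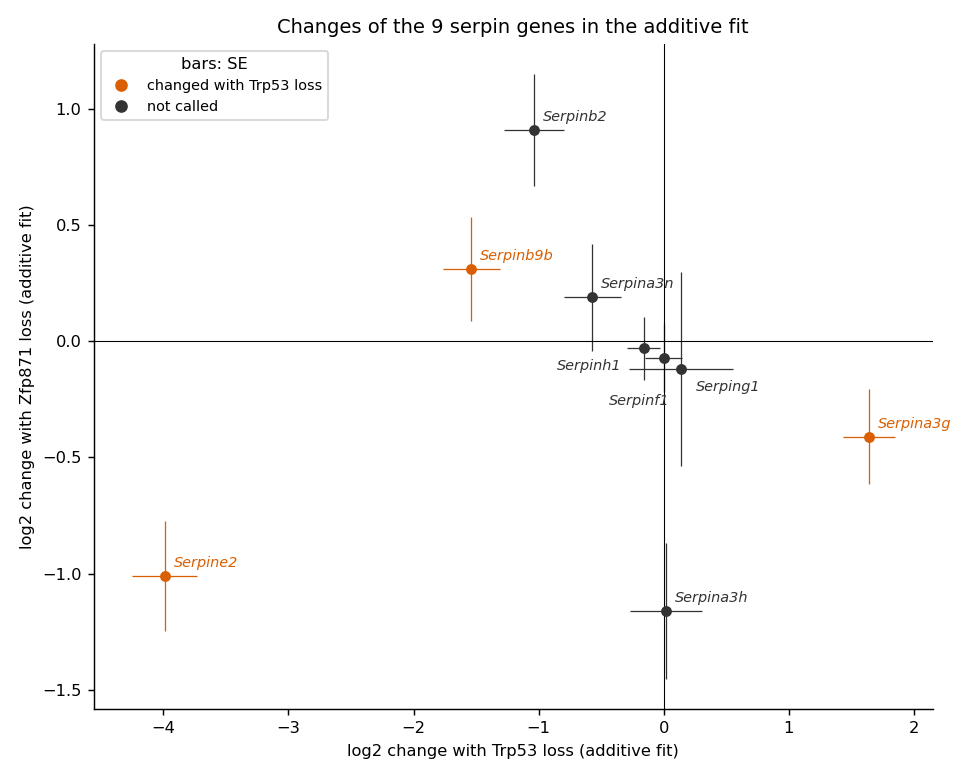
Log2 change with Trp53 loss (x axis) and with Zfp871 loss (y axis) in the additive edgeR fit for the 9 serpin genes, with SE as bars. Serpine2 (-3.99), Serpinb9b (-1.54) and Serpina3g (1.64), in orange, are the ones that passed the test for Trp53 loss.

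The 9 genes were also counted by pair, at 2-fold or more. In double null against Zfp871-/- 1 was higher and 3 were lower, where 5.51% and 6.33% of all genes were. In Trp53-/- against WT 1 was higher and 2 were lower, where 8.9% and 8.88% of all genes were. In double null against Trp53-/- 0 were higher and 1 was lower, against 0.819% and 1.01% of all genes. In Zfp871-/- against WT 1 was higher and 2 were lower, against 3.52% and 3.98% of all genes. In double null against WT 1 was higher and 3 were lower, against 8.79% and 9.23% of all genes. The median log2 ratio of the 9 genes was -0.65 and -0.11 in these Trp53 pairs and -0.28 and 0.13 in the Zfp871 pairs, where the median of all genes was 0.00. Pairs that share a library are not independent of each other. The 9 genes were chosen with earlier results of these data known, so the shares in this paragraph are background only. In both Trp53 pairs at once, 1 was higher (Serpina3g) and 2 were lower (Serpine2 and Serpinb9b), against 4.25% and 4.58% of all genes, and in both Zfp871 pairs 0 were higher, against 0.105%. Both Trp53-null libraries were higher than both others for 1 of the 9 and 32.7% of all genes, and lower for 5 of the 9 and 31.7% of all genes. With total counts in place of TMM these were 1 of the 9 and 43.1%, and 4 of the 9 and 22.4%, Serpinh1 no longer being among them. Both Zfp871-null libraries were higher than both others for 0 of the 9 and 9.34% of all genes, and with total counts for 0 of the 9 and 6.74%. They were lower for 1 of the 9, Serpina3h, and 10.4% of all genes, and with total counts for 2 of the 9, Serpina3h and Serpinh1, and 12.5% of all genes.

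Of the other 59 serpins, 34 had a count in some library, 8 passed the filter, and 0 rose and 0 fell with either loss in edgeR's test. Of the 9 genes described 9 passed the filter. Serpinb6a, an intracellular inhibitor, stood at 43 FPKM in the double null, 44 in Trp53-/-, 51.4 in Zfp871-/- and 48.2 in WT. Serpinb1a, an inhibitor of neutrophil elastase, had 43 counts in the double null, 30 in Trp53-/-, 65 in Zfp871-/- and 150 in WT, and its change of -1.71 with Trp53 loss was not called (SE 0.507, edgeR adjusted p 0.111). Of 16 genes of plasminogen activation and thrombin signalling, 12 passed the filter. Plau (urokinase) fell by 0.64 with Trp53 loss (SE 0.101, edgeR adjusted p 0.0385) and Prss23, a secreted serine protease, fell by 0.74. Lrp8, a receptor of the LDL receptor family, rose by 0.69. Plau had log2 ratios of 0.43 in both Zfp871 pairs and was not called for that loss. The substrates Plg and F2 (plasminogen and prothrombin) had 0 counts in all libraries.

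The genes whose pattern over the 4 libraries was nearest were found by the Euclidean distance of centred log2 normalized CPM, for the 5 serpins with at least a 2-fold range. With all other tested genes to choose from, a near neighbour is a description of these 4 libraries only. Cd80 lay nearest to Serpine2 (distance 0.0773), with 25 counts in the double null, 36 in Trp53-/-, 267 in Zfp871-/- and 740 in WT, and Gm16170 followed at 0.406. Psmb8 (0.115) and Lef1 (0.225) were nearest to Serpina3g, where Psmb8, an immunoproteasome subunit, had 508 counts in the double null, 713 in Trp53-/-, 162 in Zfp871-/- and 170 in WT. Lgr6 (0.143) and Dnajc28 (0.209) were nearest to Serpina3h, Pax1 (0.0946) and Gm26917 (0.117) to Serpinb2, and Crocc2 (0.0773) and Pgr (0.109) to Serpinb9b.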

How the data were processed

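RNA-seq was given as 1 table of whole-number counts per gene, not normalized by the authors. Per the submitters' processing notes, fastp, STAR, featureCounts and the mm10 build were used. Their versions, the strand setting and the annotation release were not given in the sources used here, so overlapping and antisense genes are uncertain. The deposited tables of single libraries are read as FPKM, because count over value gave a length that did not vary between libraries apart from a factor for each library. FPKM served only for levels between genes. Symbols and coordinates came from GENCODE M21 (GRCm38/mm10), which held 54495 of 54532 IDs.

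Genes with at least 1 CPM in at least 2 libraries were kept (13306) and scaled with TMM in edgeR 4.0.16 (R 4.3.3). Pairs were compared by the log2 ratio of their normalized CPM, after adding a prior count of 2. Intervals are exact Clopper-Pearson 95% intervals of both counts. They cover counting error alone, as PCR copies were not removed by molecular identifiers. Intervals of a difference between backgrounds use a normal approximation. edgeR's quasi-likelihood test was run on Trp53 + Zfp871 with 1 residual degree of freedom and a common dispersion of 0.0302, adjusted by Benjamini-Hochberg over all genes kept. SE is the log2 change divided by the root of F. Rose, fell and changed mark genes past it. Alternatives were DESeq2 1.42.0 size factors, total counts, no filter, DESeq2's Wald test, limma-voom (limma 3.58.1) and a prior count of 0.5. Shared words are 50-base and 100-base stretches found in transcripts of another gene. Promoters came from RefSeq (GRCm38.p6). The members, gene lists and rules were chosen with earlier results of these data known. Named are the 9 serpins, other serpins past the test or at least 2-fold apart in both pairs of a loss, list genes past the test, and the 2 nearest patterns of each serpin with a 2-fold range. Serpinb6a, Serpinb1a, Serpina3f, Plg and F2 were named after their values were seen. C1ra, C1s1, Masp1, Col2a1, Dcn, Msln, Krt8, Krt19, Lrrn4 and Wt1 were also named outside these rules and did not pass the test. Markers with no count in a library and genes overlapping a serpin were named as well.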

Additional observations from a re-analysis of the deposited data

Results flagged for a closer look

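3 of the 9 genes had pairwise ratios on opposite sides of 0 in both backgrounds of a loss, with both counting intervals excluding 0. The share of all genes that meet this rule was not counted. Counting intervals are narrow for genes with many counts, so small ratios of Serpinf1 and Serpinh1 can meet it. None of these differences between backgrounds could be tested with 1 library per genotype. For Serping1 the log2 ratio of Trp53 loss was -0.65 without Zfp871 and 0.93 with it, and that of Zfp871 loss was -0.90 without Trp53 and 0.68 with it, a difference of -1.58 in each case. The value is the same for both losses because it is made from the same 4 libraries. For Serpinf1 the ratios were -0.21 and 0.20 for Trp53 loss and -0.28 and 0.13 for Zfp871 loss, a difference of -0.41. For Serpinh1 the Zfp871 ratios were -0.09 without Trp53 and 0.02 with it, a difference of -0.11, and the second ratio changed sign with total counts.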

How the results depend on the processing

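Serpina3g rose and Serpine2 and Serpinb9b fell with Trp53 loss under each of the 5 alternatives run on the additive fit, with log2 changes of 1.64 to 1.76, -4.04 to -3.88 and -1.57 to -1.43. With Zfp871 loss 0 of the 9 serpins were called under any of them. Without a filter on low counts 3 serpins fell with Trp53 loss, Serpinb2 being the third at -1.04. Over all genes, that setting called 1113 genes up and 1191 down for Trp53 loss, against 667 and 574 with the filter. For Zfp871 loss it called 2 up and 4 down, and DESeq2's Wald test called 3 up and 4 down, against 0 and 0 in edgeR's test. Total counts in place of TMM raised every log2 ratio of Trp53 loss by 0.14 without Zfp871 and by 0.09 with it. Serpins at least 2-fold higher in Trp53-/- than in WT then numbered 2 instead of 1, Serping1 being added. Under total counts the Serpinh1 ratio of Zfp871-/- to WT turned to -0.03 and the Serpinf1 ratio of the double null to WT to 0.01. Calls for Trp53 loss over all genes were then 867 up and 423 down. No paired analysis was possible because each genotype had 1 library. Leaving out a library leaves no residual degree of freedom, so no such fit was made.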
